A study of Mus musculus with 4 samples.

Results

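The genes described here supply cells with amino acids and load them onto transfer RNAs, in H460 cells given farnesol. They were chosen by name from 3 subgroups: enzymes of amino acid synthesis, amino acid transporters of the plasma membrane, and cytosolic aminoacyl-tRNA synthetases. Every non-control probe whose gene name on the array was 1 of 37 listed symbols was taken, which gave 55 of 41000 probes. They measured 36 of the 37 genes, namely 11 synthesis enzymes, 8 transporters and 17 synthetases. No probe carried the name VARS, the valyl enzyme. All 36 genes could be tested, among 28598 features (genes, or single probes without a symbol), and none had a saturated spot.

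H460 is an established human lung carcinoma line, and the cells received either 250 µM farnesol, written FOH in the labels, or only its solvent DMSO (vehicle) for 4 h. The organism label names the mouse, but the line and the probes are human, and the data were treated as human. The experiment was done in duplicate, and each farnesol RNA was hybridised with the vehicle RNA matched to it on 2 arrays with Cy3 and Cy5 exchanged. The 4 arrays therefore hold 2 replicates (n = 2), each value is the log2 of farnesol divided by vehicle, and the SD is the spread of the replicates.

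Cells make the non-essential amino acids from intermediates of glycolysis and the citric acid cycle, import the rest, and join each one to its transfer RNA by a dedicated synthetase. When uncharged transfer RNA accumulates or the endoplasmic reticulum is stressed, kinases phosphorylate the initiation factor eIF2α, translation slows and the transcription factor ATF4 is made. Many genes of all 3 subgroups are textbook targets of ATF4, and ASNS is the classical one. The study's question was which transcripts differ after 4 h of farnesol.

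The 36 genes did not move as 1 block. CTH, ASNS, SLC38A2, SLC3A2 and MARS had the highest ratios, and PSAT1, NARS, RARS, GPT2, EPRS and HARS the lowest. Each of the 3 subgroups held genes on both sides of 0. No member passed limma's moderated test at an adjusted p of 0.05, where 3 of all 28598 features did (0.0105%), and the lowest adjusted p of a member was 0.192, for PSAT1. At an unadjusted p under 0.05, 3 members were higher with farnesol (CTH, MARS and LARS) and 8 were lower, against 3.71% and 10.8% of all features. At least 1.5-fold higher in both replicates was 1 member, CTH, against 1.26% of all features. At least 1.5-fold lower in both were 3 members, PSAT1, RARS and NARS, against 1.43% of all features. Among features with a symbol at least as bright as the median member, the shares were 5.25% higher and 4.87% lower. With median centring in place of loess, no member passed upwards and 4 passed downwards. Among all features at least 1.5-fold different in both replicates, that setting moved the share of higher ones from 46.8% to 29.3%. By sign alone, 6 members were above 0 in both replicates, 15 below 0 in both and 15 of opposite sign, where 35.4% of all features were higher in both and 30.1% lower in both.

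**Figure D1:**
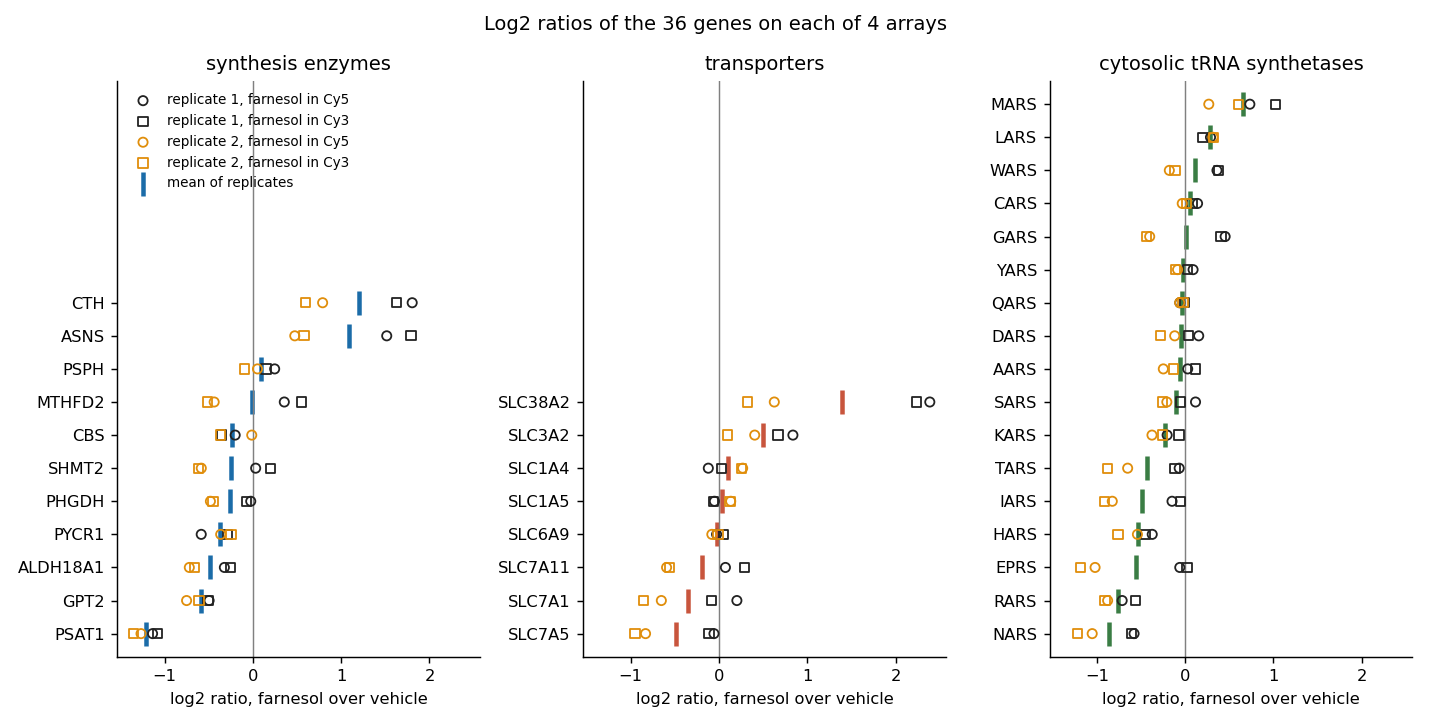
Log2 ratio of farnesol over vehicle (x axis) of each of the 36 genes on each of the 4 arrays, in 3 panels by subgroup, with genes ordered by their mean; circles and squares are the dye orientations, black and orange the replicates, and the vertical bars the mean of both replicates. SLC38A2 has the highest mean, 1.39, and PSAT1 the lowest, -1.21; for most genes the symbols of a replicate lie together and the colours lie apart, with replicate 1 to the right.

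Among the synthesis enzymes, 5 serve serine and the one-carbon units made from it. PSAT1, the aminotransferase of the second step of serine synthesis, had log2 ratios of -1.14 and -1.08 on the replicate 1 arrays and of -1.27 and -1.35 on those of replicate 2. All 4 arrays were low, and the replicates lay close together without overlapping. Its mean was -1.21 ± 0.14 (SD, n = 2), 2.31-fold lower with farnesol (limma adjusted p = 0.192, 95% interval -1.47 to -0.94). Only 0.213% of all features had a lower mean. Its vehicle level, a normalized log2 intensity, was 11.5 and 11.4 in the replicates, and its farnesol level was 10.4 and 10.1.

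The enzymes on either side of PSAT1 in the pathway had smaller ratios. PHGDH, which commits 3-phosphoglycerate to serine, had -0.05 in replicate 1 and -0.47 in replicate 2 (mean -0.26 ± 0.30, n = 2). PSPH, the phosphatase of the last step, had 0.20 and -0.02, but its 2 dimmer probes read -0.41 and -0.33 and were below 0 on all 4 arrays. SHMT2, the mitochondrial enzyme that splits serine into glycine and a one-carbon unit, had 0.12 and -0.60. MTHFD2, which carries that unit on in the mitochondrial folate cycle, had 0.45 and -0.47, so that its mean of -0.01 ± 0.66 hides opposite values. Of these 5 genes, PSAT1 alone was at least 1.5-fold lower in both replicates, and all 5 had a lower value in replicate 2 than in replicate 1.

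Proline synthesis was represented by ALDH18A1 and PYCR1, which lead from glutamate to a ring intermediate and reduce that ring to proline. ALDH18A1 had -0.29 and -0.69 in the replicates (limma adjusted p = 0.309), and PYCR1 had -0.44 and -0.31 (limma adjusted p = 0.229). Both were below 0 on all 4 arrays, although the dimmer probe of PYCR1 had a mean of -0.00.

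CTH and CBS form the transsulphuration route, which turns homocysteine into cysteine. CTH, cystathionine gamma-lyase, had log2 ratios of 1.80 and 1.63 on the replicate 1 arrays and of 0.79 and 0.59 on the replicate 2 arrays. Every array was high, and the replicate 1 arrays lay above both arrays of replicate 2. The mean was 1.20 ± 0.73 (SD, n = 2), 2.30-fold higher (limma adjusted p = 0.298). Its vehicle levels were alike in the replicates, at 9.15 and 9.04, while its farnesol levels were 10.9 and 9.73. CBS, the step before it, had -0.28 and -0.19 and was below 0 on all 4 arrays (mean -0.23 ± 0.06, n = 2). Its dimmer probe read -0.27 in replicate 1 and 0.06 in replicate 2.

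ASNS, which makes asparagine from aspartate and glutamine, had log2 ratios of 1.52 and 1.79 on the replicate 1 arrays and of 0.47 and 0.58 on those of replicate 2. All 4 were high, again with replicate 1 above replicate 2 and no overlap. Its mean was 1.09 ± 0.80 (SD, n = 2), with a 95% interval from -0.03 to 2.22 (limma adjusted p = 0.356). A probe outside the list, annotated as a locus similar to asparagine synthetase, had 1.63 and 0.54. Whether these probes separate a gene from a near-identical copy was not tested. The second ASNS probe, designed on another clone, was dim and lay between -0.08 and 0.07 on the 4 arrays, so the mean of both probes was 0.54.

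GPT2, the mitochondrial alanine aminotransferase, had -0.50 and -0.51 on the replicate 1 arrays and -0.75 and -0.61 on the replicate 2 arrays. All arrays were low, with a mean of -0.59 ± 0.13 (SD, n = 2) and a limma adjusted p of 0.198. Its second probe had a mean of -0.00 and ranged from -0.16 to 0.10, so the mean of both probes was -0.30. By the processed signals the brighter probe gave -0.95.

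Among the transporters, SLC38A2 had the highest ratio. It encodes SNAT2, a sodium-coupled importer of small neutral amino acids. Its arrays read 2.39 and 2.24 in replicate 1 and 0.63 and 0.32 in replicate 2, all high but far apart between the replicates. The mean was 1.39 ± 1.30 (SD, n = 2), with an interval from -0.43 to 3.22 (limma adjusted p = 0.438). Its vehicle levels were 9.94 and 9.52 and its farnesol levels 12.3 and 9.99. Both dimmer probes showed the same order, with 1.75 and 0.33 in the replicates for one and 0.68 and 0.12 for the other.

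SLC3A2 is the heavy chain (CD98) that brings the light chains SLC7A5 and SLC7A11 to the membrane. SLC3A2 read 0.84 and 0.67 on the replicate 1 arrays and 0.40 and 0.10 on those of replicate 2. All 4 were above 0, with a mean of 0.50 ± 0.35 (SD, n = 2; limma adjusted p = 0.361). Its second probe, missing as an outlying spot on 1 array, had a mean of 0.61, and median centring gave 0.27 for the first. SLC7A5 (LAT1), which exchanges large neutral amino acids, had -0.09 in replicate 1 and -0.89 in replicate 2. Its second probe lay on the other side of 0 on all 4 arrays, at 0.04 and 0.23, so the mean of both probes was -0.18. SLC7A11 (xCT), which imports cystine for glutamate, had 0.18 and -0.58, and its second probe 0.18 and -0.53. By the brightest probes, the mean ratio was above 0 for the heavy chain and below 0 for both light chains. The limma adjusted p was 0.505 for SLC7A5 and 0.749 for SLC7A11. This contrast of sign did not hold for the second SLC7A5 probe, nor for SLC7A11 in replicate 1.

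The other transporters had ratios near 0 or of opposite sign. SLC7A1, the cationic amino acid carrier CAT1, had 0.06 and -0.75 by its brighter probe and 0.05 and 0.04 by the dimmer one. SLC1A4 and SLC1A5, exchangers of neutral amino acids, had -0.05 and -0.06 in replicate 1 and 0.26 and 0.13 in replicate 2. By the brightest probes, SLC1A4 and SLC1A5 were the only transporters with the higher value in replicate 2. The dimmer SLC1A4 probe had 0.07 and -0.05, and the dimmer SLC1A5 probes had -0.09 and 0.11, and -0.12 and -0.22. The second SLC7A5 probe was also higher in replicate 2. SLC6A9, a glycine transporter, had 0.01 and -0.05 by a dim probe, at a mean log2 intensity of 6.36. Over the 8 transporters the median was 0.01, with 0.04 in each replicate, and none had an unadjusted p under 0.05.

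The synthetases can be divided by whether they sit in the multisynthetase complex, a stable assembly of several of these enzymes with scaffold proteins. Of the 8 complex members here, RARS, the arginyl enzyme, had the lowest ratio: -0.71 and -0.56 on the replicate 1 arrays and -0.88 and -0.91 on the replicate 2 arrays. All arrays were low, and the mean was -0.76 ± 0.18 (SD, n = 2), 1.70-fold lower (limma adjusted p = 0.198). EPRS, which charges both glutamate and proline, had -0.06 and 0.02 in replicate 1 and -1.02 and -1.18 in replicate 2. Its replicate 1 arrays were near 0 and those of replicate 2 low, so the mean of -0.56 ± 0.76 rests on replicate 2 (limma adjusted p = 0.542). IARS, the isoleucyl enzyme, had the same shape, with -0.10 in replicate 1 and -0.87 in replicate 2.

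MARS, the methionyl enzyme of the same complex, was on the other side. Its arrays read 0.73 and 1.02 in replicate 1 and 0.27 and 0.61 in replicate 2, all high. The mean was 0.66 ± 0.31 (SD, n = 2), 1.58-fold higher (limma adjusted p = 0.263). A second, dimmer probe had -0.06 and -0.18, so the mean of both probes was 0.27. LARS, the leucyl enzyme, had 0.24 and 0.32, among the closest replicates of any member, but its dimmer probe had 0.08 and -0.54. DARS, KARS and QARS, which charge aspartate, lysine and glutamine, had means of -0.05, -0.23 and -0.04. The KARS and QARS probes were dim, at mean log2 intensities of 7.53 and 7.07. Over the 8 genes of the complex the median was -0.14, with 2 genes above 0 and 5 below 0 in both replicates.

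Of the 9 synthetases outside the complex, NARS, the asparaginyl enzyme, had -0.58 and -0.61 on the replicate 1 arrays and -1.05 and -1.22 on those of replicate 2. All arrays were low, with the replicate 1 value of -0.59 just past the 1.5-fold limit. The mean was -0.87 ± 0.39 (SD, n = 2), 1.82-fold lower (limma adjusted p = 0.246). NARS thus had a negative ratio where ASNS, which makes its substrate, had a positive one. A tag sequence annotated as a small part of the same asparaginyl enzyme, outside the list, had 0.11 and 0.07.

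HARS, the histidyl enzyme, had -0.37 and -0.45 on the replicate 1 arrays and -0.54 and -0.76 on those of replicate 2, and its second probe had -0.39 and -0.49. All 8 values were low, and the brighter probe's mean was -0.53 ± 0.17 (SD, n = 2; limma adjusted p = 0.222). TARS, for threonine, had -0.09 in replicate 1 and -0.77 in replicate 2. GARS, for glycine, had 0.43 and -0.42, and WARS, for tryptophan, 0.37 and -0.15. Their means of 0.00 and 0.11 describe neither replicate. AARS, CARS, SARS and YARS, for alanine, cysteine, serine and tyrosine, had means from -0.10 to 0.05. The probes of AARS, CARS and YARS were dim, at mean log2 intensities of 7.32, 7.20 and 6.87, against 9.95 for NARS. The background correction shrinks ratios of such probes, so values near 0 need not mean unchanged transcripts.

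The valyl enzyme may be represented by a probe named VARS2 on the array, an older symbol of the cytosolic enzyme. It had -0.27 and 0.07, and it is counted neither among the members nor among the mitochondrial synthetases below.

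In 31 of 36 members (86.1%) the ratio was higher in replicate 1 than in replicate 2, against 48.8% of all features. By subgroup this held for 9 of 11 synthesis enzymes, 6 of 8 transporters and 16 of 17 synthetases, with LARS the exception among the last. It held for 44 of the 55 probes counted singly. The median member was 0.35 higher in replicate 1, while the arrays of 1 replicate differed by a median of 0.09 between dye orientations and the replicates by 0.36.

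**Figure D2:**
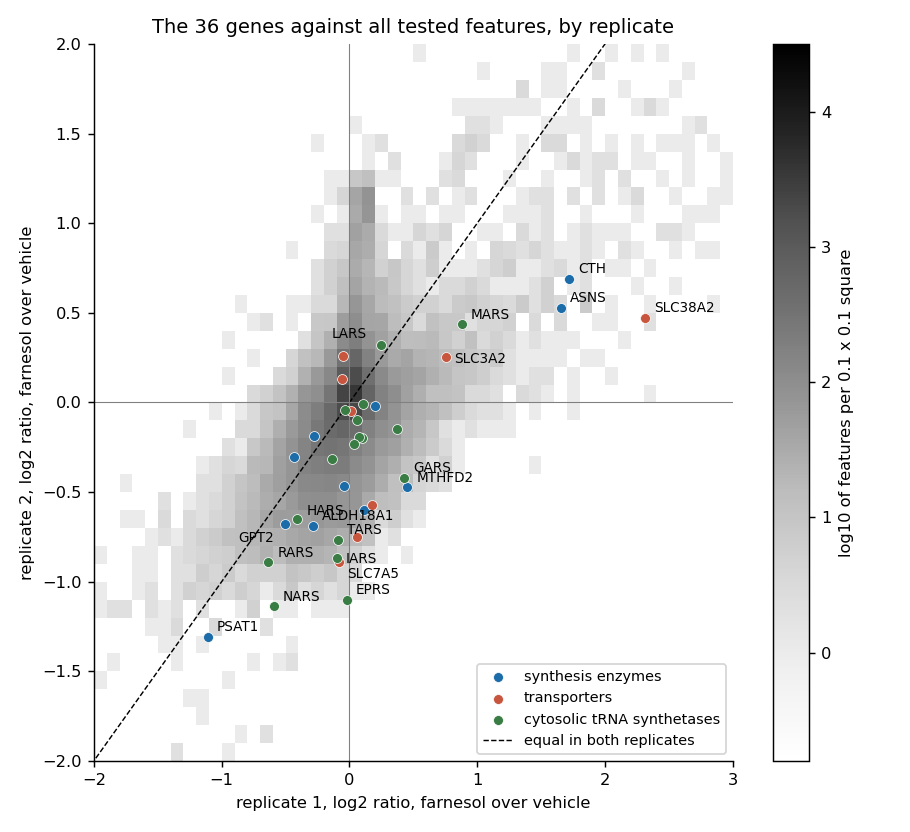
Log2 ratio of farnesol over vehicle in replicate 1 (x axis) and replicate 2 (y axis) for the 36 genes (coloured by subgroup), over a grey grid of the number of tested features per square on a log10 scale; the dashed line marks equal values. 31 of 36 genes lie below the line, with SLC38A2, ASNS and CTH at the right and EPRS, NARS and PSAT1 at the bottom.

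Counted in single replicates, 5 members were at least 1.5-fold higher in replicate 1 (ASNS, CTH, MARS, SLC38A2 and SLC3A2), where 3.02% of all features were, and 1 member, CTH, in replicate 2, where 3.59% were. At least 1.5-fold lower were 3 members in replicate 1, against 2.4% of all features, and 12 members in replicate 2, against 4.66%. The 12 were PSAT1, GPT2, ALDH18A1, SHMT2, SLC7A1, SLC7A5, EPRS, HARS, IARS, NARS, RARS and TARS. The median of the synthesis enzymes was -0.05 in replicate 1 and -0.47 in replicate 2, and that of the synthetases was 0.03 and -0.23. The median of the transporters was 0.04 in each replicate. Across the 36 genes the replicates correlated at r = 0.737, close to the 0.71 of all features with a symbol. Genes are not independent, and the pairs share arrays and normalization. The cause of the difference between the replicates was not tested.

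The median member was bright, as only 3506 of 28598 features were at least as bright. Some members, such as SLC6A9 and YARS, were dim. Bright features passed the 1.5-fold limit in both replicates more often than all features, of which 1.26% passed upwards and 1.43% downwards. The median of all members was -0.08, against 0.01 over all features. Among the 2402 features with a symbol that were at least as bright as the median member, a comparison chosen after the data were seen, the median was also -0.08. Without the limit to features with a symbol, the median of the 3506 such features was -0.03. Of the 2402, 45.5% were lower in both replicates, against 41.7% of members. At least 1.5-fold higher in both were 5.25% of the 2402 and 4.34% of the 3506, against 2.78% of members. At least 1.5-fold lower in both were 4.87% and 3.96%, against 8.33% of members. The higher value was in replicate 1 in 53.1% of the 2402 and in 47.9% of the 3506, against 86.1% of members. In replicate 2, 16.3% of the 2402 and 12.4% of the 3506 were at least 1.5-fold lower, against 33.3% of members. The part of brightness in the members' ratios was not tested further.

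With several probes for a gene, the choice of probe decided some values. Of the 16 members with more than 1 probe, 9 had all probes of 1 sign and 7 had probes on both sides of 0. The gap between the probes of a gene had a median of 0.38 and reached 1.09 for ASNS, 0.99 for SLC38A2, 0.78 for MARS and 0.62 for SLC7A5. SLC7A11, SHMT2 and HARS had gaps of at most 0.09, and for them the probes gave 1 picture. In ASNS, SLC38A2, MARS, SLC7A5, GPT2 and LARS, the genes with the widest gaps, the dimmer probes lay nearer to 0, LARS being nearly even on either side of it. PSPH, next with a gap of 0.495, went the other way, its dimmer probes at -0.41 and -0.33 lying farther from 0. A dimmer probe also lay farther from 0 in SLC3A2, SLC1A5 and SHMT2. Outside the list, the 4 probes of LAT1-3TM, whose name contains LAT1 (SLC7A5), had means from -0.26 to 0.03. A dim probe annotated as a locus similar to phosphoserine aminotransferase (PSAT1) had -0.49 and -0.36. Whether these probes share sequence with the members was not tested.

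**Figure D3:**
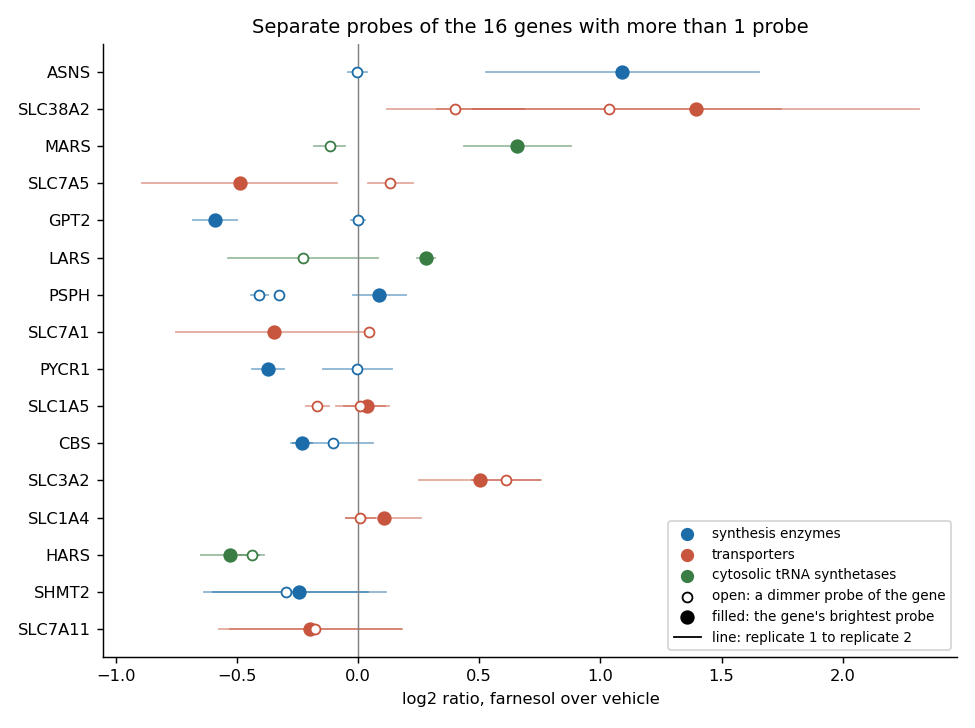
Mean log2 ratio of farnesol over vehicle (x axis) of each probe of the 16 genes with more than 1 probe, filled for the brightest probe and open for the others, with a line from replicate 1 to replicate 2, ordered by the gap between probes. ASNS has the widest gap, 1.09, and SLC7A11 the narrowest, 0.02.

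Genes around these in the same pathways were counted from lists drawn up beside the members. For scale, 1.26% of all features passed the 1.5-fold limit upwards in both replicates, and 1.43% passed it downwards. Among the 2402 bright features with a symbol these shares were 5.25% and 4.87%. Of 18 other genes of amino acid metabolism, 2 were at least 1.5-fold different in both replicates, and both were lower with farnesol: OAT, ornithine aminotransferase, at -0.77 ± 0.11, and MAT2A, which makes S-adenosylmethionine, at -0.71 ± 0.15 (n = 2). Both genes had a limma adjusted p of 0.192. A second MAT2A probe had -0.58 and -0.72, just short of 1.5-fold in replicate 1. The median of the 18 genes was -0.25, and that of the synthesis members -0.24. None of 21 other amino acid transporters reached 1.5-fold in both replicates, and their median was 0.01. Of 5 other genes of cytosolic charging, 1 did: FARSLB, the beta chain of the phenylalanyl enzyme, at -0.78 ± 0.10 (n = 2). Its second probe had -0.59 and -0.46, short of 1.5-fold in replicate 2. None of 10 genes listed as mitochondrial synthetases reached 1.5-fold in both replicates, with a median of -0.28 (-0.25 over 11 genes with the VARS2 probe). That list held both HARS2 and HARSL, and which of them names the mitochondrial histidyl enzyme was not checked.

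Regulators and targets of the amino acid response had a median of 0.82 over 16 genes. Of these, none passed 1.5-fold downwards in both replicates and 7 passed upwards, against 1.43% and 1.26% of all features. They included DDIT3 (CHOP) at 5.17 ± 0.57, ATF3 at 7.09 ± 0.42 with a second probe at 2.90, and PPP1R15A, the phosphatase subunit GADD34, at 1.94 ± 0.27 (n = 2). The others were DDIT4 at 2.10 ± 1.23, CEBPB at 1.35 ± 0.34 with a second probe at 0.32, SESN2 at 1.22 ± 0.36 and CEBPG at 1.06 ± 0.66 (n = 2). None of the 16 passed at an adjusted p of 0.05 (limma). By sign, 11 of the 16 were above 0 in both replicates, 1 below 0 in both and 4 of opposite sign. The 1 below 0 was EIF2AK4, an eIF2α kinase, at -0.51 ± 0.11 (n = 2). ATF4 itself was of opposite sign, with 0.34 in replicate 1 and -0.04 in replicate 2. In 14 of the 16 the ratio was higher in replicate 1, as in 31 of the 36 members. DDIT3 read 5.57 in replicate 1 and 4.77 in replicate 2.

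The authors' deposited table lists 22 of the 55 member probes, where it lists 17.1% of all probes on the array. Its ratios follow the scanner values of replicate 1 (r = 0.9999 across probes) and less those of replicate 2 (r = 0.832), so it gives no second measurement. Of the 17 member genes in the authors' deposited table, 9 are higher with farnesol and 8 lower. SLC38A2 has the highest ratio there by its brightest probe, 5.3, ahead of CTH at 3.55 and ASNS at 3.20 in the authors' deposited table. PSAT1 has the lowest ratio in the authors' deposited table, 0.468. MTHFD2 at 1.41, GARS at 1.40 and WARS at 1.34 are higher in the authors' deposited table and were below 0 in replicate 2.

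On each array 82.7% to 93.0% of the spots in a channel stood well above background. All 6 epithelial markers checked (KRT7, KRT8, KRT18, KRT19, TACSTD1 and CDH1) were above background. So were 7 of 8 markers of leukocytes, endothelium, fibroblasts and alveolar type II cells, so detection alone does not separate cell types on these arrays. Fewer cells and less RNA per cell cannot be told apart in bulk RNA.

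**Figure D4:**
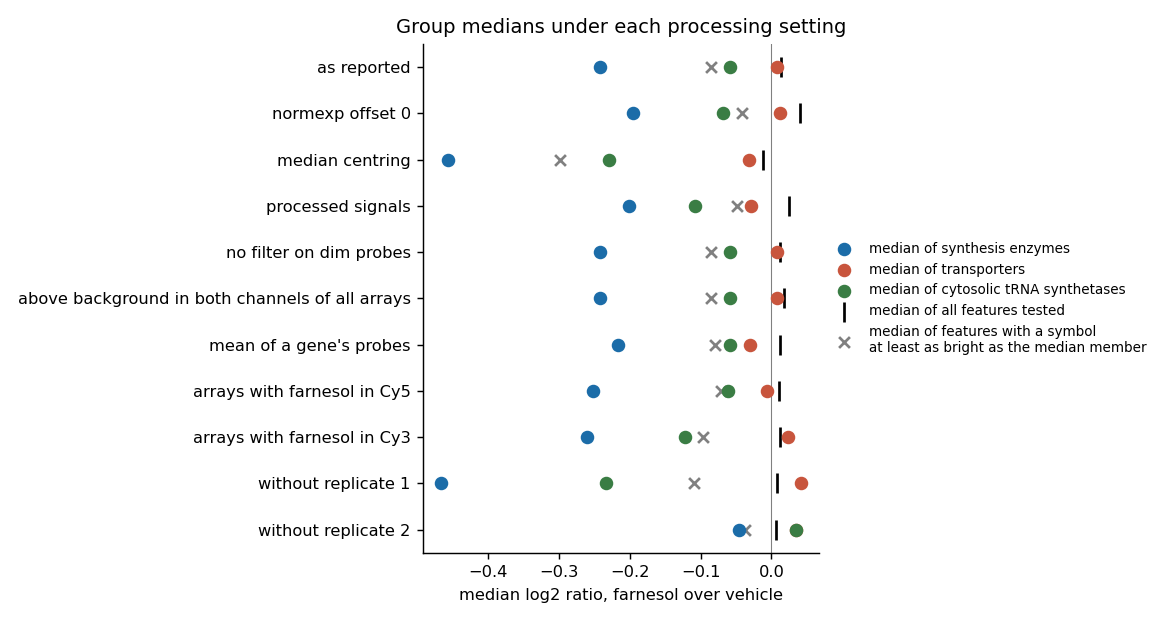
Median log2 ratio of farnesol over vehicle (x axis) of synthesis enzymes, transporters and cytosolic synthetases under each processing setting (y axis), with the median of all features (bars) and of features with a symbol at least as bright as the median member (crosses). Synthesis enzymes lie lowest in every setting, from -0.47 without replicate 1 to -0.05 without replicate 2, and median centring lowers all but the transporters and all features by over 0.1.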

How the data were processed

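The members and lists were chosen with earlier results of these data known. Spot mean and local background intensities of each channel were used as deposited, from Agilent Feature Extraction 8.1.1.1 per the file headers (8.1 per the labels). The deposited processed intensity was background-subtracted and dye-normalized, and the deposited log10 ratio was taken from it, per the file headers. The authors' deposited list gives a linear ratio and a p-value per probe, all p-values being at most 0.001, and names no program.

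The work was done with limma 3.58.1 in R 4.3.3. Normexp (offset 50) was used for background correction, which shrinks ratios of dim probes, and ratios were normalized by loess within arrays. Ratios were turned to farnesol over vehicle and dye-swapped arrays averaged, so n = 2. Each pair of RNAs shared its arrays, so the ratio is already paired. Testing required a signal well above background in 1 condition, on 1 or more arrays of each replicate, and used the brightest probe of a gene. limma's moderated test against 0 was two-sided, with Benjamini-Hochberg adjustment over 28598 features and 1 residual degree of freedom plus a prior of 1.81. The fit was tested on simulated data. Levels were also scaled between arrays (Aquantile). All members are named, and those with a mean of at least 0.5 in size, or probes at least 1 apart, are given on every array. Nothing states that the duplicate experiments were separate cultures, so p-values speak only for these samples. They rest on a gene's own spread between the replicates and, through the prior, on the spread of all features tested. No sequence or coordinate was used here.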

Additional observations from a re-analysis of the deposited data

How the results depend on the processing

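No member passed limma's adjusted threshold under any of the 9 alternatives that allow a test. At an unadjusted p under 0.05 these gave 1 to 6 members higher and 6 to 9 lower, and the lowest adjusted p of any member was 0.0662, for PSAT1 with median centring. All 11 members described on every array kept their sign in 8 settings (background offset, centring, processed signals, both dim-probe filters, mean of probes, either dye orientation). MTHFD2, PSPH, DARS, GARS, WARS, YARS, SLC1A5 and SLC6A9 did not. Members at least 1.5-fold higher in both replicates numbered 2 with offset 0 or farnesol in Cy5 (CTH, SLC38A2). They numbered 2 with farnesol in Cy3 (CTH, MARS) and 0 with median centring. With 1 replicate left out, the limit had to be met only in the other, an easier condition that 1 to 5 members met. Those at least 1.5-fold lower in both replicates numbered 2 with farnesol in Cy5 (PSAT1, RARS) or in Cy3 (NARS, PSAT1), and 4 with median centring. They numbered 3 with offset 0 or processed signals, with GPT2 in place of NARS. By the easier condition of 1 replicate alone, 3 were lower without replicate 2 and 12 without replicate 1. The transporter median was -0.0314 with median centring, -0.0283 with processed signals, -0.0297 with the mean of probes, -0.00685 with farnesol in Cy5 and 0.0238 with farnesol in Cy3. Leaving out 1 replicate gave 0.0353 and 0.0413. Median centring moved the share of 1.5-fold features that were higher from 46.8% to 29.3% and the median of bright features with a symbol from -0.08 to -0.30. The cause of these shifts was not tested. The number of replicates, 2, limits the precision.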
